A study of Danio rerio with 6 samples.

Results

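The genes described here encode proteins made by the hepatocyte, the main cell of the liver. They are 10 genes of the 31624 listed, taken by symbol, and each symbol matched a single entry: rbp4, tfa, hpx, cp, serpina1, ambp, fga, fgb, fgg and fabp10a. Messenger RNA of zebrafish (Danio rerio) embryos was sequenced in 6 libraries. The 3 knockout libraries carry the genotype label Trdmt1 knockout and the 3 control libraries the label wildtype, and the labels name no further allele, agent or treatment. The sources used here give no embryo age, no kind of knockout allele and no word on separate clutches. The p-values therefore measure the spread between these samples only. Trdmt1 (also Dnmt2) is an RNA methyltransferase that acts on transfer RNAs, and earlier work in zebrafish tied it to liver growth.

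Hepatocytes supply most plasma proteins: carriers of iron, copper, heme and retinol, protease inhibitors, and the fibrinogen chains that form a clot. In fish embryos the yolk syncytial layer, a nucleated layer around the yolk, also transcribes some plasma protein genes, among them tfa, rbp4 and apolipoprotein genes, before and while the liver grows. Several of these proteins also belong to the acute phase response, in which inflammatory signals change what the liver secretes. The product of fabp10a is the exception in the set, an intracellular carrier of fatty and bile acids that is widely used to mark zebrafish hepatocytes. In bulk embryo RNA, fewer cells of a type and less RNA per cell cannot be told apart.

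Reads counted in genes totalled between 12877132 and 18721589 per library, and the 10 genes took between 0.298% and 0.466% of them. The targeted gene trdmt1 stood at 3.10, 2.60 and 1.08 RPKM (reads per kilobase, scaled to library depth) across controls 1, 2 and 3, against 1.59, 1.40 and 1.07 RPKM across knockouts 1, 2 and 3. Its groups overlapped (edgeR adjusted p = 0.746), so the transcript does not check the labels. Sets of 3 values below follow the same order of libraries. Knockouts 1 and 2 nearly agreed, with a chi-square per degree of freedom of 1.58 between their counts against 11.7 to 75.6 in the other pairs. Knockout 3 stood apart: its correlation of log2 values with the other libraries, across genes, was 0.937 to 0.941.

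None of the 10 genes passed the test across all genes, although the levels of 6 of them did not overlap between the groups. The heme carrier gene hpx, the retinol carrier gene rbp4, the inhibitor gene ambp, the fibrinogen chain gene fgg and the antitrypsin gene serpina1 were lower in every knockout library than in every control. The ferroxidase gene cp was higher in every knockout library. The largest fold difference was in hpx, whose mean level was 0.667 ± 0.0945 RPKM over the controls and 0.177 ± 0.0569 RPKM over the knockouts (SD, n = 3 per group). By edgeR's quasi-likelihood test on 20555 genes, with Benjamini-Hochberg adjustment and a threshold of 0.05 on the adjusted p, 0 of the 10 were called in either direction. Over all genes tested, 0.102% were called higher and 0.0146% lower.

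At an unadjusted p under 0.05 in edgeR, cp was higher and 4 genes were lower, namely hpx, rbp4, ambp and fgg. The background at that level was 4.06% of all genes higher and 3.41% lower. By DESeq2, 1 of the 10 was called lower, hpx, and 0 higher, where 0.224% of genes tested were called lower and 0.916% higher. Of all genes tested, 9% had RPKM values that were lower in every knockout library, and 6.3% had values that were higher in every one. With RPKM scaled by TMM, edgeR's library scaling, serpina1 overlapped, which left 4 genes without overlap on the lower side, against 7.46% of all genes, and cp on the higher side, against 7.61%. The near agreement of knockouts 1 and 2 makes such a separation easier to reach than with 3 independent libraries. The median log2 fold change of the 10 genes was -0.30, with 4 positive and 6 negative values, while the median over all genes tested was -0.00385. A median this low was not particular to the 10 genes. It was -0.34 over the yolk layer and lipoprotein list described below, 0.17 over other plasma protein genes and 0.07 over hepatocyte enzyme genes. The 10 genes were chosen with earlier results of these data known, so neither count is a test of the set.

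**Figure D1:**
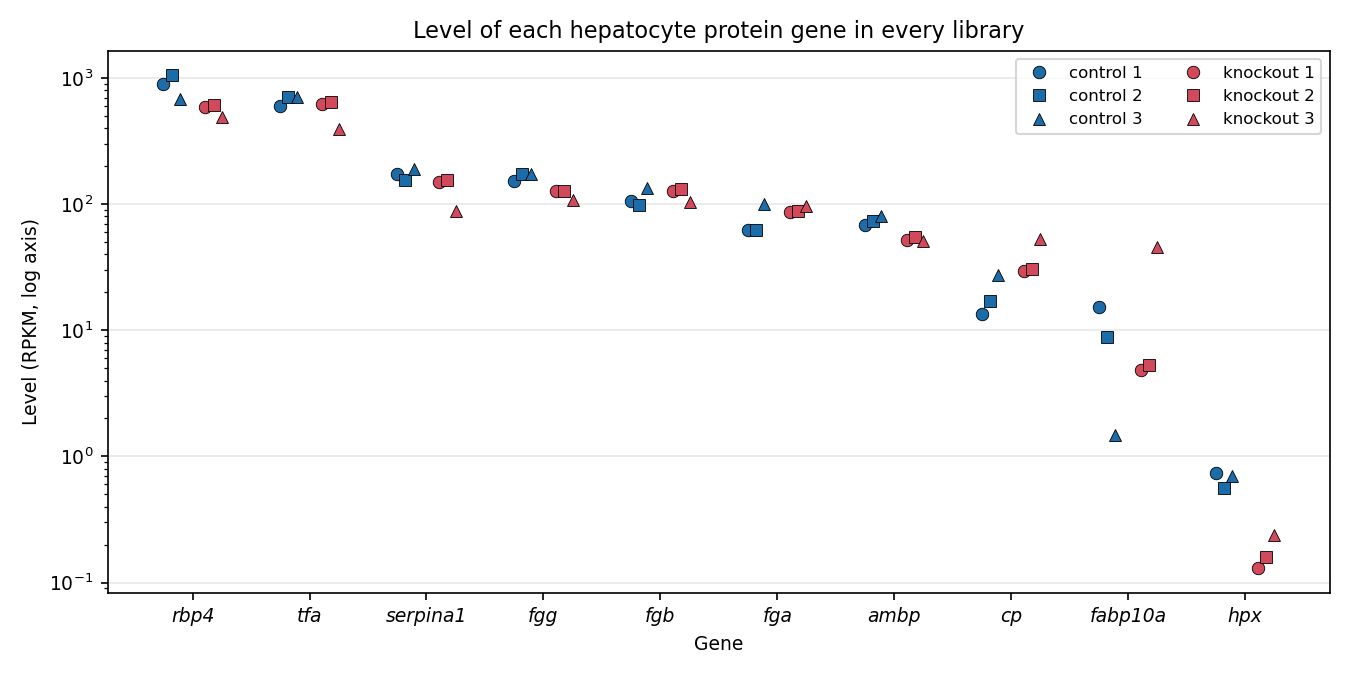
Level of each of the 10 genes in every library, in RPKM on a log axis, with controls in blue, knockouts in red and a marker shape for each replicate number. The genes span from 0.13 RPKM for hpx to 1052 RPKM for rbp4, and the fabp10a libraries lie farthest apart, between 1.48 and 45.6 RPKM.

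Among the carriers, rbp4 and tfa had the highest levels of the set in every library. The plasma retinol-binding protein gene rbp4 (ENSDARG00000101199), whose product carries vitamin A in the blood, stood at 907, 1052 and 677 RPKM across the controls, against 596, 608 and 492 RPKM across the knockouts. All knockout libraries lay below all controls, with control 3 nearest to them. The log2 fold change was -0.59 ± 0.18 (SE; edgeR adjusted p = 0.463, unadjusted p = 0.0101). The exact permutation test over the 20 assignments of libraries, two-sided here and below, gave p = 0.1, the smallest it allows. Both tests take the 6 libraries as independent. The near agreement of knockouts 1 and 2 can therefore make their p-values too small, here and below. The log2 fold change of rbp4 remained negative without any 1 library, between -0.73 without control 3 and -0.45 without control 2.

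The transferrin gene tfa (ENSDARG00000016771), whose product carries iron in plasma, stood at 600, 712 and 710 RPKM across the controls, against 623, 644 and 399 RPKM across the knockouts. Knockouts 1 and 2 lay within the control range, and knockout 3 lay below every other library, at 0.629 of the mean of knockouts 1 and 2. Its log2 fold change was -0.24 ± 0.21 (SE; edgeR adjusted p = 0.823), with a 95% interval from -0.70 to 0.22.

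The hemopexin gene hpx (ENSDARG00000012609), whose product binds free heme in plasma, had the lowest level of the set. It stood at 0.74, 0.56 and 0.70 RPKM across the controls, which are 54, 41 and 35 reads, against 0.13, 0.16 and 0.24 RPKM across the knockouts, which are 8, 10 and 14 reads. The groups did not overlap, and the fitted level was 3.67-fold lower in the knockout. The log2 fold change was -1.87 ± 0.37 (SE), with a 95% interval from -2.72 to -1.03 (edgeR adjusted p = 0.16, unadjusted p = 0.000687; exact permutation p = 0.1). The difference passed with DESeq2 (adjusted p = 0.0214) and, in edgeR, without knockout 3 (adjusted p = 0.0386, log2 fold change -2.14). Without knockout 3 the group holds only knockouts 1 and 2, which nearly agree, so its spread can be understated. That setting called 165 genes higher and 41 lower over the whole table, against 21 and 3 with all libraries. In the other edgeR settings the adjusted p of hpx was 0.132 to 0.492, among them 0.452 with knockouts 1 and 2 summed.

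The ceruloplasmin gene cp (ENSDARG00000010312), for a copper-carrying ferroxidase that prepares iron for transferrin, stood at 13.6, 17.0 and 27.3 RPKM across the controls, against 29.4, 30.6 and 53.0 RPKM across the knockouts. Control 3 lay just below knockout 1, and knockout 3 lay above all others. On the log2 scale the fold change was 0.99 ± 0.32 (SE; edgeR adjusted p = 0.5, unadjusted p = 0.0127; exact permutation p = 0.1). It was 0.67 without knockout 3 and 1.36 without control 3, and the adjusted p was above the threshold in both. The carriers thus differed in direction: cp was on the higher side and hpx and rbp4 on the lower. The ratio of cp to tfa, in reads per length, was 0.0226, 0.0239 and 0.0385 in controls and 0.0473, 0.0475 and 0.133 in knockouts 1, 2 and 3. These do not overlap (exact permutation p = 0.1), and the ratio was chosen after the values were seen.

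**Figure D2:**
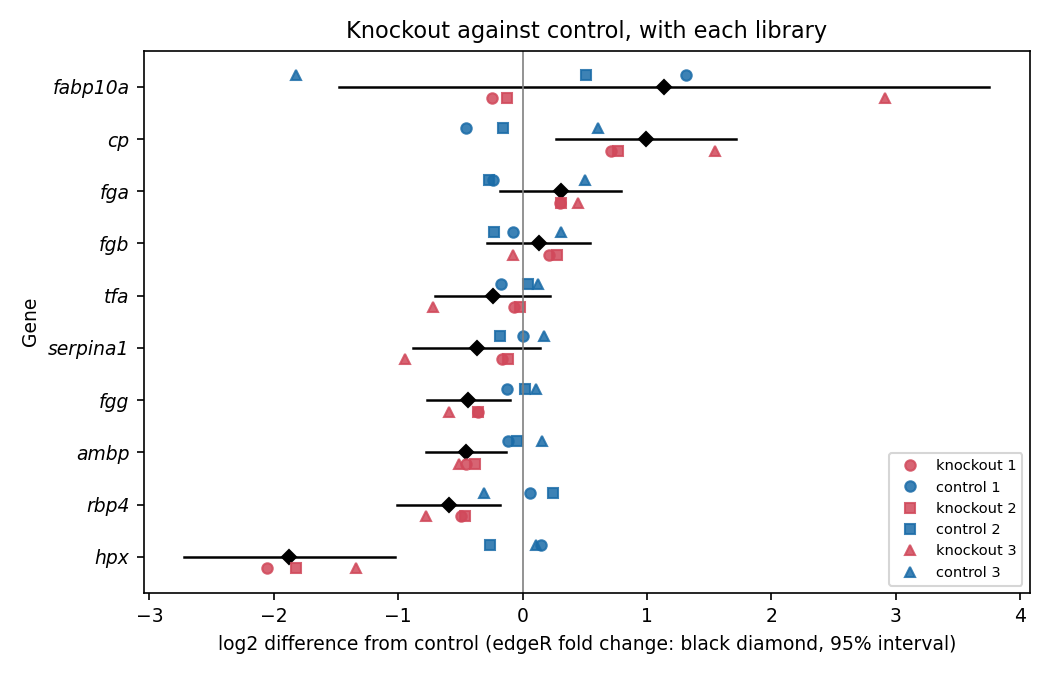
Difference from control for each gene on the log2 scale: black diamonds are edgeR log2 fold changes with 95% intervals, and coloured markers are each library's log2 CPM minus the control mean. The intervals of hpx, rbp4, ambp and fgg lie below 0 and that of cp above 0, none adjusted for the number of genes tested, while fabp10a has the widest, from -1.48 to 3.75.

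The protease inhibitor genes were both on the lower side. The gene ambp (ENSDARG00000004296), whose product is cut into alpha-1-microglobulin and the inhibitor bikunin, stood at 68.7, 73.7 and 80.1 RPKM across the controls, against 52.4, 55.1 and 50.8 RPKM across the knockouts. It varied least within the knockout group, where the highest level was 1.09 times the lowest, and knockout 3 lay close to the other knockouts. On the log2 scale the fold change was -0.45 ± 0.14 (SE; edgeR adjusted p = 0.469, unadjusted p = 0.0107; exact permutation p = 0.1).

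The gene serpina1 (ENSDARG00000090286), for alpha-1-antitrypsin, which inhibits neutrophil elastase, stood at 174, 157 and 189 RPKM across the controls, against 150, 155 and 87.7 RPKM across the knockouts. Knockout 2 lay just under control 2, so the separation was narrow, and it was lost with TMM scaling (151 RPKM in control 2 and 157 RPKM in knockout 2). Its log2 fold change was -0.37 ± 0.23 (SE; edgeR adjusted p = 0.763), with a 95% interval from -0.88 to 0.14. As in tfa, knockout 3 was the lowest library, at 0.576 of the mean of knockouts 1 and 2. The separate entry serpina1l, outside the 10 genes, went the other way. It stood at 65.3, 69.7 and 66.4 RPKM across the controls, against 92.1, 91.9 and 74.6 RPKM across the knockouts (edgeR adjusted p = 0.58, unadjusted p = 0.0226).

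Fibrinogen is built from an alpha, a beta and a gamma chain in equal numbers, and the 3 chain genes did not differ alike between the groups. The alpha chain gene fga (ENSDARG00000020741) stood at 62.4, 62.2 and 100 RPKM across the controls, against 87.4, 87.7 and 96.9 RPKM across the knockouts. Control 3 was the highest library, so the groups overlapped. The beta chain gene fgb (ENSDARG00000008969) stood at 107, 98.4 and 135 RPKM across the controls, against 127, 132 and 104 RPKM across the knockouts. Its groups overlapped as well, with control 3 again the highest. The gamma chain gene fgg (ENSDARG00000037281) stood at 154, 173 and 175 RPKM across the controls, against 127, 126 and 108 RPKM across the knockouts, with no overlap.

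The log2 fold change of fga was 0.31 ± 0.22 (SE; edgeR adjusted p = 0.79) and that of fgb 0.13 ± 0.18 (SE; edgeR adjusted p = 0.899). For fgg it was -0.43 ± 0.15 (SE; edgeR adjusted p = 0.531, unadjusted p = 0.0165; exact permutation p = 0.1). The ratio of fga to fgg, in reads per length within a library, was 0.406, 0.359 and 0.573 in controls and 0.690, 0.694 and 0.894 in knockouts 1, 2 and 3. The ratio of fgb to fgg was 0.697, 0.568 and 0.771 in controls and 1.00, 1.05 and 0.960 in knockouts 1, 2 and 3. In controls the gamma chain gene thus had the highest level of the 3, while in knockouts it was about level with the beta chain gene. Neither ratio overlapped between the groups, and library scaling does not enter them. Both were chosen after the values were seen, and the exact permutation p of 0.1 for each is the smallest this design allows.

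The mean log2 ratio was higher in knockouts by 0.79 for fga to fgg and by 0.57 for fgb to fgg. Without any 1 library the differences lay between 0.64 and 0.98 for the first and between 0.45 and 0.67 for the second. A ratio shows unequal change and not which chain gene changed. The ratio of fga to fgb was 0.583, 0.632 and 0.743 in controls and 0.688, 0.663 and 0.931 in knockouts 1, 2 and 3, and its groups overlapped (exact permutation p = 0.4). In the RefSeq annotation of assembly GRCz12tu, where 9 of the 10 genes were matched, fga and fgb have 1 protein-coding gene between them, and fgg lies on the same chromosome with 258 protein-coding genes between it and fga.

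**Figure D3:**
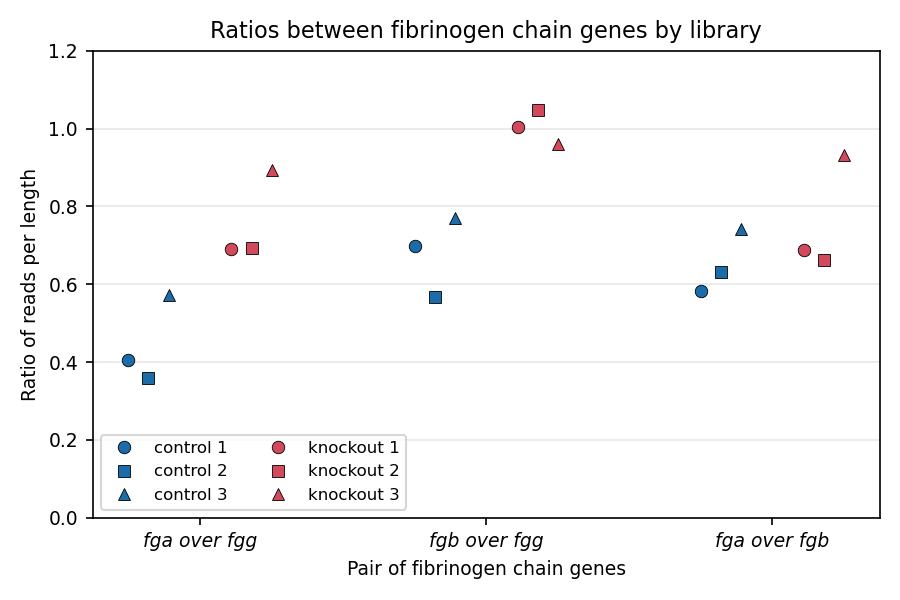
Ratio of reads per length between fibrinogen chain genes in each library, with controls in blue, knockouts in red and a marker shape for each replicate number. All knockout libraries lie above all controls for fga over fgg and for fgb over fgg, while fga over fgb overlaps.

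The hepatocyte marker gene fabp10a (ENSDARG00000038439) varied more between libraries of a group than between the groups. It stood at 15.4, 8.85 and 1.48 RPKM across the controls, which are 151, 87 and 10 reads, against 4.89, 5.33 and 45.6 RPKM across the knockouts, which are 40, 45 and 364 reads. The highest control was 10.4 times the lowest, and knockout 3 was 8.93 times the mean of the other knockouts. The log2 fold change was 1.14 ± 1.08 (SE; edgeR adjusted p = 0.841; exact permutation p = 0.8). It was -0.73 without knockout 3 and 1.87 without control 1. The 95% interval, from -1.48 to 3.75, covers large differences in both directions, so the data do not settle whether this marker differed.

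Most of the secreted protein genes did not follow fabp10a across libraries. Control 3, with the lowest fabp10a level, had the highest levels of serpina1, fga, fgb, fgg and ambp of all 6 libraries. Knockout 3, with the highest fabp10a level, had the lowest levels of tfa, serpina1, fgg, ambp and rbp4. Other genes went the other way there: cp was at its highest of all 6 libraries, and fga and hpx were at their highest among the knockouts. Of the 39 other plasma protein genes matched, 16 were highest and 12 lowest in knockout 3, and of the 36 hepatocyte enzyme genes 17 were highest and 8 lowest. The shares of all genes that were highest or lowest in knockout 3 were not counted. Such counts, here and below, therefore do not set a list apart from other genes. Low-level liver genes such as gc, the vitamin D carrier, were among those that were high where fabp10a was. It measured 1.46, 0.46 and 0.39 RPKM across the controls, against 0.28, 0.39 and 6.82 RPKM across the knockouts. The bile acid synthesis gene cyp8b1 did likewise, with 2.08, 0.84 and 0.63 RPKM across the controls, against 0.42, 0.57 and 6.47 RPKM across the knockouts. Both were picked with their values in view. The label of hepatocyte genes thus holds for what the products are known to be, while the libraries do not show all their transcripts in a fixed proportion to the hepatocyte marker. Set against fabp10a, in reads per length with 0.5 added to each count, hpx was the 1 gene of 9 whose ratio did not overlap between groups. That ratio was 0.0483, 0.0637 and 0.454 in controls and 0.0282, 0.0310 and 0.00535 in knockouts 1, 2 and 3 (exact permutation p = 0.1). For 5 of the 9, the sign of the difference turned when some library was left out.

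The library with high fabp10a also had high levels of some genes listed for other organs. The rod opsin gene rho stood at 10.6, 15.3 and 10.8 RPKM across the controls, against 4.25, 4.64 and 292 RPKM across the knockouts. The exocrine pancreas gene try, for trypsin, was at 56.8 RPKM in knockout 3 and at 4.31 to 7.36 RPKM elsewhere. The hatching gland gene he1a was at 15.0 RPKM there and at 91.1 to 198 RPKM elsewhere. Of the 8 matched hatching gland genes, 5 were lowest in knockout 3. Another 2, cd63 and xbp1, were highest there, at 162 and 127 RPKM. Over the exocrine pancreas list, with 10 of 14 matched genes at a mean of at least 1 RPKM, the summed level was 17.9 to 36.5 RPKM in controls and 22.5 to 192 RPKM in knockouts. Over the photoreceptor list, with 17 of 19 at that level, it was 75.5 to 170 RPKM in controls and 40.7 to 1224 RPKM in knockouts. The islet list summed to 122 to 131 RPKM in controls and 136 to 157 RPKM in knockouts, with 9 of 10 at that level. That sum was led by neurod1, at 44.0 to 48.4 RPKM in controls and 53.3 to 70.8 RPKM in knockouts. In knockout 3, 5 of the 10 genes of the islet list were at their highest of all libraries, and ins and insb were at their lowest. The bile duct list summed to 271 to 332 RPKM in controls and 301 to 447 RPKM in knockouts, with 6 of 9 at a mean of at least 1 RPKM. It was led by krt18, at 338 RPKM in knockout 3 and 178 to 235 RPKM elsewhere. In knockout 3, 6 of the 9 genes of the bile duct list were highest and 0 lowest. In bulk embryo RNA such sums and counts do not show which organ the transcripts came from. The hatching gland list summed to 385 to 505 RPKM in controls and 344 to 495 RPKM in knockouts, with 6 of 8. In knockout 3 that sum was mostly cd63 and xbp1. No matched gene of any list was at 0 in all libraries. The part of these differences between libraries in the levels of fabp10a and cp was not tested.

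Most genes of the yolk layer and lipoprotein list were lowest in knockout 3, as tfa and serpina1 were: 13 of 19 matched, with 0 highest there. The 6 others, among them apoeb and the iron exporter gene slc40a1, were neither. The list, with 16 of 19 matched genes at a mean of at least 1 RPKM, summed to 14808, 17773 and 16861 RPKM over controls and to 15188, 15340 and 9809 RPKM across the knockouts. The abundant apolipoprotein gene apoa1a stood at 3957, 4794 and 5662 RPKM across the controls, against 4337, 4222 and 2577 RPKM across the knockouts. None of the list's 17 tested genes was called in either direction by edgeR or DESeq2. At an unadjusted edgeR p under 0.05 there was 1 lower and 0 higher, against 3.41% and 4.06% of all genes tested. RPKM values did not overlap for 3 on the lower side and 0 on the higher, against 9% and 6.3% of all genes tested. The median log2 fold change of the list was -0.34, with 3 positive and 14 negative values. The intestine list, with 8 of 9 matched genes at a mean of at least 1 RPKM, summed to 699 to 757 RPKM over controls and to 664, 647 and 251 RPKM across the knockouts. That sum follows abundant genes: fabp1b.1, fabp2 and apoa4a, which is also on the yolk layer list, were lowest in knockout 3, while the other 6 were highest there. Of the latter, the brush border gene vil1 was at 18.4 RPKM in knockout 3 and at 1.65 to 2.58 RPKM elsewhere. The median log2 fold change of the 8 tested intestine genes was 0.44, with 5 positive and 3 negative values. The 10 genes described here summed to 2103, 2354 and 2096 RPKM over controls and to 1796, 1844 and 1437 RPKM across the knockouts, most of it rbp4 and tfa. The part of yolk layer RNA in these levels was not tested.

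**Figure D4:**
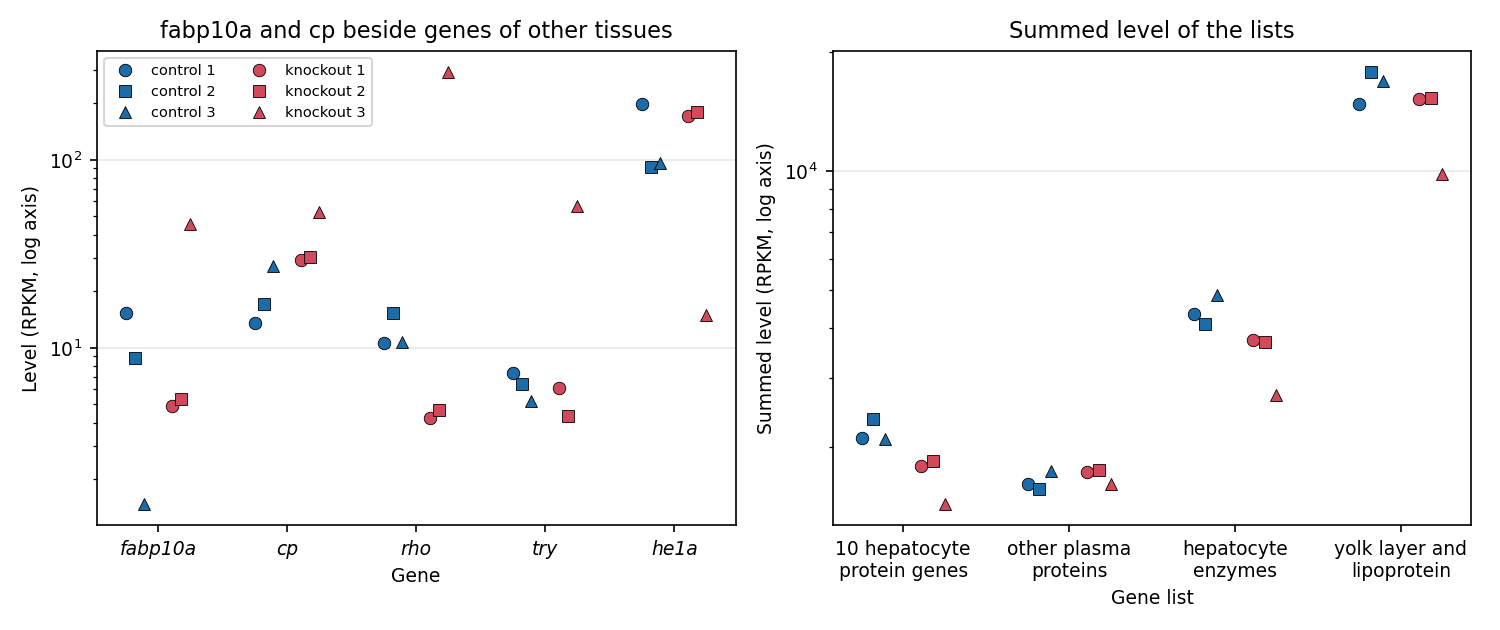
Left, levels of fabp10a and cp beside rho (rod opsin), try (trypsin) and he1a (hatching gland protease) in every library, in RPKM on a log axis. Right, summed RPKM of 4 gene lists on a log axis. Knockout 3 is the highest library for fabp10a, cp, rho and try, and the lowest for he1a and for the yolk layer and lipoprotein list at 9809 RPKM.

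Other plasma protein genes went in both directions. Of 39 matched, 36 were tested and 0 were called by edgeR, with 5 higher and 3 lower at an unadjusted p under 0.05 and 2 higher (igfbp1a and fetub) and 1 lower (sepp1a) by DESeq2, and the median log2 fold change was 0.17. The insulin-like growth factor binding protein gene igfbp1a stood at 27.7, 15.2 and 17.9 RPKM across the controls, against 50.7, 52.0 and 82.6 RPKM across the knockouts (log2 fold change 1.65, edgeR adjusted p = 0.0776). The gene fetub, for a fetuin, stood at 187, 219 and 195 RPKM across the controls, against 306, 303 and 280 RPKM across the knockouts (edgeR adjusted p = 0.245). Both were named for the smallest p in the list, and both had every knockout library above every control. Of the 36 tested, 5 had no overlap on the higher side and 4 on the lower, against 6.3% and 9% of all genes tested. For the counts at an unadjusted edgeR p under 0.05, here and below, the shares of all genes were 4.06% higher and 3.41% lower. For the counts called by DESeq2, here and below, they were 0.916% higher and 0.224% lower.

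The terminal complement gene c9 likewise had no overlap, at 101, 95.1 and 137 RPKM across the controls, against 175, 184 and 152 RPKM across the knockouts (edgeR adjusted p = 0.398). The selenoprotein P gene, listed as sepp1a, which carries selenium, was on the lower side with rbp4 and hpx. It stood at 603, 566 and 525 RPKM across the controls, against 385, 387 and 331 RPKM across the knockouts (edgeR adjusted p = 0.301).

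Genes for hepatocyte enzymes were not called by edgeR either. Of 36 matched, 34 were tested and 0 called by edgeR, while DESeq2 called 1 higher (pck1) and 0 lower. At an unadjusted edgeR p under 0.05, 8 were higher and 4 lower, against 4.06% and 3.41% of all genes tested. RPKM values did not overlap for 6 on the higher side and 7 on the lower, against 6.3% and 9% of all genes tested. The median log2 fold change was 0.07. The gluconeogenic genes pck1 and fbp1b lay on opposite sides. The first, for the enzyme that commits carbon to glucose synthesis, stood at 24.3, 20.6 and 26.5 RPKM across the controls, against 40.2, 42.2 and 78.0 RPKM across the knockouts (edgeR adjusted p = 0.195). The second, for a fructose bisphosphatase, stood at 132, 129 and 115 RPKM across the controls, against 88.8, 89.2 and 62.3 RPKM (edgeR adjusted p = 0.389). The abundant genes bhmt and gamt, which serve methionine and creatine metabolism, had log2 fold changes of -0.33 and -0.34 and edgeR adjusted p of 0.76 and 0.763.

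The transcription factor genes of liver development had 20 of 20 tested and 0 called by edgeR or DESeq2, with 1 higher and 0 lower at an unadjusted edgeR p under 0.05 and a median log2 fold change of 0.11. Those with the highest levels were gata6, with a mean of 13.1 RPKM over the controls and 13.7 RPKM over the knockouts, cebpa, at 12.6 and 17.9 RPKM, and prox1a, at 11.5 and 13.1 RPKM (n = 3 per group). The endoderm factor genes hnf1ba and foxa3 were highest in knockout 3, at 8.94 and 9.20 RPKM, against 3.56 to 4.65 and 3.18 to 4.84 RPKM in the other libraries.

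The acute phase list held 1 called gene. The transcription factor gene cebpb, which drives acute phase genes in the mammalian liver, rose from 51.7, 26.2 and 38.2 RPKM in controls to 153, 148 and 222 RPKM across the knockouts (log2 fold change 2.21, edgeR adjusted p = 0.0266). The call was lost without control 1, 2 or 3 (adjusted p = 0.068, 0.247 and 0.192). Its relative cebpd stood at 92.0, 36.3 and 45.6 RPKM across the controls, against 146, 147 and 314 RPKM across the knockouts (edgeR adjusted p = 0.272). The cytokine gene il1b stood at 0.95, 0.40 and 2.00 RPKM across the controls, against 12.0, 12.2 and 4.49 RPKM (edgeR adjusted p = 0.16). Of 18 matched genes 12 were tested, 1 was called higher and 0 lower by edgeR and 3 higher by DESeq2 (cebpb, cebpd and il1b). At an unadjusted edgeR p under 0.05, 5 were higher and 0 lower, against 4.06% and 3.41% of all genes tested. RPKM values did not overlap for 3 on the higher side and 1 on the lower, against 6.3% and 9% of all genes tested. The median log2 fold change was 0.64.

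The complement gene c3a.1 overlapped between the groups, at 76.0, 51.1 and 148 RPKM across the controls, against 154, 151 and 119 RPKM across the knockouts (edgeR adjusted p = 0.756). The hepatic acute phase genes saa and crp did not pass the filter on low counts and reached at most 0.46 and 0.16 RPKM in a library. The further entries crp1 and crp2 did not pass it either. They reached at most 1.65 RPKM, in knockout 3, and 0.21 RPKM, in knockout 2. Of the 10 genes described here, several are acute phase genes in mammals, and they did not share a direction. In every knockout library cp was higher, and hpx, serpina1 and fgg were lower, while fga and fgb overlapped. With TMM scaling serpina1 overlapped as well. Of the rest of the 10, rbp4 and ambp were lower in every knockout library, and tfa and fabp10a overlapped. Whether these values reflect an acute phase response was not tested. The macrophage list, with 9 of 10 genes at a mean of at least 1 RPKM, summed to 28.8 to 38.6 RPKM in controls and 44.0 to 44.8 RPKM in knockouts. Of its 10 tested genes, 8 had positive and 2 negative log2 fold changes, with a median of 0.30. Its genes with the highest mean levels differed little or in both directions. Over controls and knockouts, coro1a had means of 10.4 and 12.8 RPKM, csf1ra 6.89 and 5.98 RPKM, and mpeg1.1 4.98 and 5.14 RPKM. The further entry mpeg1.2 stood at 2.29, 1.03 and 0.94 RPKM across the controls, against 4.16, 3.79 and 6.79 RPKM across the knockouts. Its groups did not overlap (edgeR adjusted p = 0.174, unadjusted p = 0.000912). At an unadjusted edgeR p under 0.05, 3 genes of the list were higher and 0 lower, against 4.06% and 3.41% of all genes tested. DESeq2 called 2 higher, mpeg1.2 and marco, and 0 lower. The list's 1 gene called by edgeR was marco, a macrophage scavenger receptor, which rose from 2.32, 1.54 and 1.62 RPKM to 6.88, 5.82 and 5.44 RPKM (log2 fold change 1.76, edgeR adjusted p = 0.0491). That call was lost without any control (adjusted p = 0.0759, 0.353 and 0.241 without controls 1, 2 and 3), without knockout 1 or 2 (0.12 and 0.103), and with knockouts 1 and 2 summed (0.118). With the replicate number as a block its adjusted p was 0.0653. The macrophage list's part in the acute phase values was not tested.

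Genes that handle the cargo of these carriers were compared last. Of 19 iron, copper and heme genes tested, 0 were called by edgeR or DESeq2, with 1 higher and 1 lower at an unadjusted edgeR p under 0.05 and a median log2 fold change of -0.01. The transferrin receptor gene tfr1b stood at 18.68, 20.04 and 20.48 RPKM across the controls, against 13.9, 14.5 and 12.6 RPKM across the knockouts (edgeR adjusted p = 0.369). The hepcidin gene hamp, for the hormone that limits iron export, overlapped, at 4.39, 3.10 and 2.12 RPKM across the controls, against 3.57, 6.32 and 7.31 RPKM across the knockouts (edgeR adjusted p = 0.626). The heme oxygenase gene hmox1a stood at 56.8, 32.4 and 66.6 RPKM across the controls, against 44.9, 45.1 and 23.1 RPKM (edgeR adjusted p = 0.803).

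The ferritin gene fth1a, for iron storage, overlapped as well, at 736, 602 and 750 RPKM across the controls, against 650, 671 and 559 RPKM across the knockouts (edgeR adjusted p = 0.899). A further ferritin entry, zgc:92066, had 82.6 RPKM in controls and 120 RPKM in knockouts on average (edgeR adjusted p = 0.763). The red blood cell list, whose embryonic globins carry heme, summed to 4872 to 5627 RPKM over controls and to 6305, 6157 and 3676 RPKM across the knockouts. In all knockouts hpx was low, while the globin-led sum was highest in knockouts 1 and 2 and lowest in knockout 3. A relation between hpx and that sum was not tested.

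Of 17 retinoid transport and metabolism genes tested, 0 were called by edgeR, with 0 higher and 3 lower at an unadjusted p under 0.05, 0 higher and 1 lower by DESeq2 (bco1), and a median log2 fold change of 0.05. The carotenoid cleavage gene bco1, whose enzyme makes retinal from beta-carotene, stood at 19.5, 20.6 and 17.4 RPKM across the controls, against 12.3, 12.8 and 11.4 RPKM across the knockouts (log2 fold change -0.62, edgeR adjusted p = 0.232). The retinoic acid binding protein gene crabp2a stood at 26.8, 23.8 and 19.7 RPKM across the controls, against 17.4, 17.4 and 11.2 RPKM (edgeR adjusted p = 0.549). Both were named for the smallest p in the list, and both had every knockout library below every control. Of the 17 tested, 2 had no overlap on the lower side and 1 on the higher. Over all genes tested the shares were 9% and 6.3%. The abundant genes rbp2a, rbp5 and rdh10a had edgeR adjusted p of 0.932, 0.901 and 0.955.

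In the annotation terms of the deposited table, all 10 genes carried at least 1 term. The term extracellular region was attached to tfa, hpx, ambp and rbp4, 4 of the 10, and to 3.38% of the 18822 annotated genes. The fibrinogen complex term held fga, fgb and fgg and no other gene. Metal ion binding was attached to tfa, hpx and cp, and to 11.8% of annotated genes.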

How the data were processed

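The deposited table lists 31624 Ensembl genes. Libraries were made with an NEBNext Ultra kit from RNA of integrity number over 7, per the labels' protocols. Tools named, per the submitters' processing notes, are Trimmomatic 0.30, HISAT2 2.0.1, HTSeq 0.6.1 and DESeq, with genome build Zv9 and neither order nor settings. No source used here states the strand setting, so antisense or overlapping partners can share reads. The authors deposited whole-number counts, taken as not normalized. Dividing them by the library total and exonic length gave the deposited RPKM of every gene within 0.005. A further 6 columns of per-sample values match no sample label and were not used.

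Genes were filtered with filterByExpr (20555 kept, all 10 members among them) and scaled by TMM. The groups were compared with edgeR 4.0.16 (robust quasi-likelihood, no covariate, R 4.3.3). Standard errors derive from the F statistic and 95% intervals from its degrees of freedom. Log2 CPM has a prior count of 2. Exact tests used Python 3.11.15. Chi-squares between libraries used genes with at least 20 summed reads. The procedure was tested on simulated independent libraries, a setting without the near agreement of knockouts 1 and 2. Alternatives were other filters, DESeq2 size factors, DESeq2 1.42.0, a replicate block, each library left out, knockouts 1 and 2 summed, and other offsets and denominators for ratios.

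The members, gene lists, tests and alternatives were chosen with earlier results of these data known. All 10 members are named. From the other lists the rule took called genes and, from the plasma protein, enzyme, liver factor, acute phase, iron and retinoid lists, the 3 with the highest mean RPKM and the 2 with the smallest p. The genes trdmt1, rho, try, he1a, apoa1a, apoeb, slc40a1, fabp1b.1, fabp2, apoa4a, vil1, gc, cyp8b1, saa and crp are outside that rule. So are crp1, crp2, coro1a, csf1ra, mpeg1.1, mpeg1.2, serpina1l, neurod1, ins, insb, krt18, cd63 and xbp1. A further gene that the rule takes is not reported here.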

Additional observations from a re-analysis of the deposited data

How the results depend on the processing

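The fold changes of 9 of the 10 genes kept their direction in every setting in which they were tested. That of fabp10a was reversed without knockout 3, at -0.73, and ranged up to 1.87, without control 1. The call of hpx was gained with DESeq2 and without knockout 3, so 1 of the 10 was lower there and 0 in the other settings. The call without knockout 3 rests on knockouts 1 and 2, which nearly agree. With those summed, hpx had an edgeR adjusted p of 0.452. With a mean of at least 2 RPKM, hpx was not tested. The median log2 fold change of the 10 lay between -0.42 and -0.23 over all settings. Genes called over the whole table numbered 21 higher and 3 lower. They were 47 and 6 with no filter on low counts, and 188 and 46 with DESeq2. Leaving out 1 library gave 0 to 165 higher and 0 to 41 lower genes. With knockouts 1 and 2 summed, 0 genes were lower. With the replicate number as a block, 1 gene was lower and 0 of the 10 were called, with adjusted p = 0.08 for cp. Same-numbered samples did not deviate together (correlations -0.000145, -0.0587 and -0.0348 across genes), and no sample correlated best with its own number. With 3 libraries per group and knockouts 1 and 2 nearly alike, these correlations cannot show whether same-numbered samples share an origin. For hpx, 8 to 54 reads per library limit the precision.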
